A study of Homo sapiens with 18 samples.

Results

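The regions described are 514 RNA polymerase II (RNAPII) peaks at promoters that were present in both states of a breast epithelial cell line, stayed with triptolide (TPL) in the untransformed state and were absent with TPL in the transformed state. They were chosen from the 11222 peaks listed for untransformed cells with the solvent. A peak was taken when it shared at least 1 bp with a peak of the transformed (TAM) list and with a peak of the NT + TPL list, and none with a peak of the TAM + TPL list. The cells were MCF10A-ErSrc, a non-tumorigenic mammary line whose v-Src kinase is fused to an estrogen receptor part and is switched on by tamoxifen. The groups were NT cells (no tamoxifen) with DMSO, NT cells with TPL, TAM cells (transformed with tamoxifen) with DMSO and TAM cells with TPL (the dose the labels write as TPL-125nM), all incubated for 4 h and all carrying the ErSrc fusion. RNA was sequenced in 2 libraries a group, while the ChIP, with 2 samples a group, is given as 1 peak list a group with starts and ends only, so presence and absence carry no replicate and no test.

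RNAPII gathers at promoters after the general factors have assembled there, and the XPB subunit of TFIIH opens the DNA by hydrolysing ATP. TPL binds XPB and blocks that step, and prolonged exposure is known to lower the amount of RNAPII itself. mRNA outlasts the polymerase at its promoter by minutes to many hours, depending on the transcript, so an RNA level read shortly after a block holds both old and new transcripts.

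The lists differ in how they were named. Peak names in the NT, NT + TPL and TAM + TPL lists carry a cutoff of 0.02, those in the TAM list a q of 0.1, and 41.5% of the 11056 TAM peaks bear a letter that marks them as pieces of a longer peak. The names refer to replicate 1, and whether replicates were pooled is not given in the sources used here. The part of these differences in the membership of the 514 peaks was not tested. The 4 lists held 11222 (NT), 8653 (NT + TPL), 11056 (TAM) and 8464 (TAM + TPL) peaks. For comparison, another 514 peaks were lost only in NT cells, 1575 were lost with TPL in both states and 6948 were kept in both.

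The promoters below are examples of the sequence at these peaks. Of the 300 bases of each window, 142 (MICALL2), 162 (CDCA7), 238 (PITX1) and 133 (MCM6) lay inside the member peak. The windows of SLC7A11, MRPS26 and KRT5 lay wholly inside. Some marked matches are therefore outside the peak. Each runs from 270 bases before the start site of the canonical transcript to base 30 of the transcript, 5′ to 3′ on the strand of the gene, on GRCh37 (the hg19 build). Capitals mark matches, on either strand, to 12 short motifs, of which TTTNGCGC for E2F was added after values had been seen. The TATA box was read as TATAAA. The GC box was GGGCGG and the CCAAT box was as named. For ETS factors the letters were CCGGAAG. YY1 was AAGATGGCG, while AP-1 was TGANTCA. The CRE was TGACGTCA and the E-box CACGTG. STAT was TTCCNNGAA. The longer motifs of NRF1 and NF-kB are given by name only. MICALL2 and SLC7A11 are the members whose RNA was called raised by TPL in TAM cells, CDCA7, PITX1 and MRPS26 were among those called lowered, KRT5 lies under the second widest peak, and MCM6 stands for the DNA replication genes.
MICALL2, chr7:1499077-1499376, minus strand: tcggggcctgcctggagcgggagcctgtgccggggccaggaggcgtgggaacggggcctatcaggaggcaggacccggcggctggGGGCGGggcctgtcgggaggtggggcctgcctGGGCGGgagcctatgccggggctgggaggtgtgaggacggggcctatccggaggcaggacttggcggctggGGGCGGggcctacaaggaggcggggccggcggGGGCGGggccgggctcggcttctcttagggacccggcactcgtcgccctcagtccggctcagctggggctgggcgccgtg
SLC7A11, chr4:139163474-139163773, minus strand: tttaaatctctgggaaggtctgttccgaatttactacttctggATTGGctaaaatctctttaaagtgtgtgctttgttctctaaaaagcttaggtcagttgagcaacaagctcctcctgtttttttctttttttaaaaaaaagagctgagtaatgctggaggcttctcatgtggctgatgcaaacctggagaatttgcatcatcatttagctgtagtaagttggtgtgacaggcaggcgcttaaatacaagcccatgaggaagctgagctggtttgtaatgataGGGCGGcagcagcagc
CDCA7, chr2:174219330-174219629, plus strand: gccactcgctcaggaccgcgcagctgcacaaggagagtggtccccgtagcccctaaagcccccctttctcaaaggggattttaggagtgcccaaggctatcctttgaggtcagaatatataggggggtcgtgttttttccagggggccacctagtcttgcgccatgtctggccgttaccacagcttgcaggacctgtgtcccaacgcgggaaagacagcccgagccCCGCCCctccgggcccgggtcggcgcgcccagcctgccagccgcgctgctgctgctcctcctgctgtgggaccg
PITX1, chr5:134369889-134370188, minus strand: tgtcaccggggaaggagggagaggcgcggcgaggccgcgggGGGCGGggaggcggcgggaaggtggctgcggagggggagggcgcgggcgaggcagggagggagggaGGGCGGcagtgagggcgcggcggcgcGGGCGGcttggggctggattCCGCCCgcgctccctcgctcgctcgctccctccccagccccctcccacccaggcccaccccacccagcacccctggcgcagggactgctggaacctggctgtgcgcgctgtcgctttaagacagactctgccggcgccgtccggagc
MRPS26, chr20:3026428-3026727, plus strand: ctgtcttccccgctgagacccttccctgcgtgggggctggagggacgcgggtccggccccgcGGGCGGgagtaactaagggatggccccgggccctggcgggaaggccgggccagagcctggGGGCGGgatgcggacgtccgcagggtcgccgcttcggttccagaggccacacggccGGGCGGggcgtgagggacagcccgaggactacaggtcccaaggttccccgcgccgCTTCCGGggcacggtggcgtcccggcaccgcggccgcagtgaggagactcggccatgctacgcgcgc
KRT5, chr12:52914149-52914448, minus strand: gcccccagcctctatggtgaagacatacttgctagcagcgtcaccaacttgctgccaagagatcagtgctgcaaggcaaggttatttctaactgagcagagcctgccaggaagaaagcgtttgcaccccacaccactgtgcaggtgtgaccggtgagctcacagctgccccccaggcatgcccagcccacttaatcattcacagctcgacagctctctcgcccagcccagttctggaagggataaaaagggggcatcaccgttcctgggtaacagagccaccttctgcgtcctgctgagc
MCM6, chr2:136633984-136634283, minus strand: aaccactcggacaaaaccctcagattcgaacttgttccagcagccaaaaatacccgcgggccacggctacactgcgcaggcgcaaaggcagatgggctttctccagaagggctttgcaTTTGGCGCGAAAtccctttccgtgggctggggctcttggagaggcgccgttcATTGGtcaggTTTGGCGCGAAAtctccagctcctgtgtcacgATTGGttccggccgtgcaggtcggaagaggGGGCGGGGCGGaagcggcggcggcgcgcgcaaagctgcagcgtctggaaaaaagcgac

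These promoters differed in base content, while all but KRT5 held a GC box. The MICALL2 and PITX1 windows held 77.0 and 77.3% G or C and 4 GC boxes each, and overlapping letters count once for each start. The SLC7A11 window held 42.0% G or C and 3 CpG dinucleotides. KRT5 had 7 CpG and no match to any of the 12 motifs. In MCM6 the letters of the E2F motif lie on both strands around positions -152 and -90, beside CCAAT boxes at -100 and -58 (positions count back from the start site). The letters around -152 lie outside the member peak. In all, 466 windows could be read at start sites within the 514 peaks. Their median G or C content was 66.7%, against 66.3% over the 11509 windows of the whole NT list and 56.7% over 38560 annotated promoters. CCAAT was found in 45.3% of them, compared with 36.9% for the whole NT list, 27.4% for peaks lost in both states and 36.2% for all promoters. GC boxes were found in 78.1%, against 77.0% in the NT list and 42.6% in all promoters. The ETS letters were found in 13.5%, below the 27.6% of peaks kept in both states, above the 7.83% of those lost in both and near the 12.5% of those lost only in NT cells, with 23.5% in the whole NT list. The E2F letters stood in 24 windows, or 5.15%, against 3.32% in the NT list, 1.78% at peaks lost only in NT cells and 1.55% of all promoters. These shares are descriptions and were not tested, and a match is not evidence of binding.

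The peaks were narrower than those that stayed. The median width in the NT list was 532 bp for the peaks lost only in TAM cells, 780 bp for the kept peaks and 488 bp for those lost in both states. The peaks overlapping those lost only in TAM cells had a median of 277 bp in the TAM list and 317.5 bp in the NT + TPL list. Where several overlapped the same NT peak, the widest was taken. Of the 514, 467 were narrower in the TAM list than in the NT list, a share like that of the kept peaks (6331 of 6948). A TAM width can be that of a piece of a longer peak, and the part of this splitting in the widths was not tested. Width bears on membership, since a narrow peak has less to overlap, so no test was made. A median of 61.0% of the NT peak was covered in the TAM list and 56.4% in the NT + TPL list. The members just inside the rule shared as little as 19 bp with a TAM peak and 9 bp with an NT + TPL peak. On the other side, kept peaks shared as little as 14 bp with a TAM + TPL peak, and 7 of them shared under 50 bp. At 363 of the 445 peaks with an annotated start site, the same start site lay within the NT, TAM and NT + TPL peaks.

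**Figure D1:**
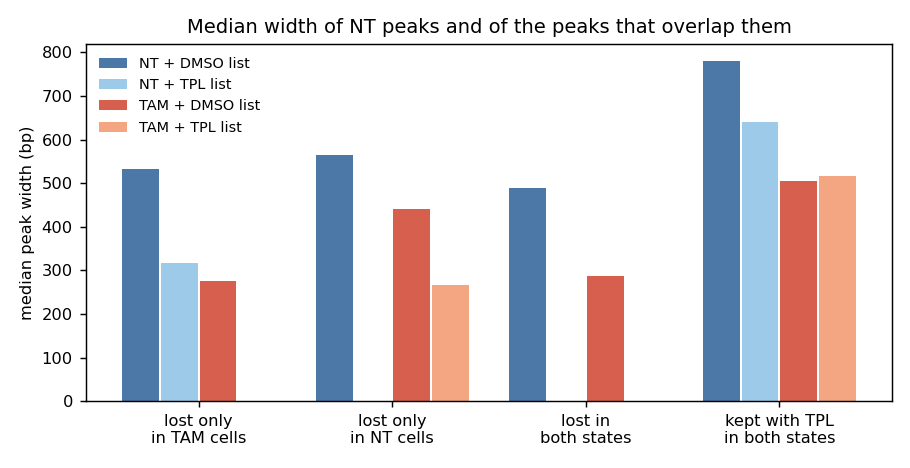
Median width in bp of NT peaks in 4 classes (blue) and of the overlapping peaks in the NT + TPL, TAM and TAM + TPL lists. The widest was taken where several overlapped, and a missing bar means that the rule leaves no overlapping peak. Peaks lost only in TAM cells had a median of 532 bp in the NT list, below the 780 bp of the kept peaks.

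The 3 widest NT peaks were shorter in the NT + TPL list. At KRT7, a keratin of simple epithelium, the NT peak covered 27366 bp and reached over KRT86. The widest overlapping TAM peak covered 12748 bp, and the NT + TPL peak 181 bp. At KRT5, the keratin of basal epithelial cells, the widths were 8264 bp (NT), 7878 bp (TAM) and 506 bp (NT + TPL). The third widest peak, 6967 bp, held the annotated 5′ ends of the microRNA genes MIRLET7A3, MIRLET7B and MIR4763, which may not be where transcription starts. The widths were 5430 bp in TAM cells and 277 bp in NT + TPL cells. CTDSP1, a small phosphatase that acts on the RNAPII tail, had 3361 bp in NT and 4735 bp in TAM cells and 259 bp with TPL in NT cells. At these 4 loci the NT + TPL peak was the shortest of the 3, but not at some other wide members. At TRMT2A the widths were 5109 bp (NT), 205 bp (TAM) and 687 bp (NT + TPL), and at ZMYND8 4081, 279 and 326 bp. A peak without an annotated start site had 4609, 1138 and 5147 bp. The 3 widest peaks were picked by NT width, which favours a shorter peak in the other lists. Over the 26 members wider than 2 kb, the median was 2834 bp in the NT, 1084.5 bp in the TAM and 442 bp in the NT + TPL list.

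Most members lay more than 10 kb from any TAM + TPL peak, and the same distance was not computed for the other classes. The median distance to the nearest TAM + TPL peak was 38612 bp, 89 members had one within 1 kb and 148 within 10 kb, and 2 members had none on their chromosome. The paper reports that with TPL the main RNAPII peak moved to the 5′ side of the start site. The part of such a shift in the 89 members was not tested. The nearest with a named gene, at TAX1BP1, an autophagy receptor, lay 31 bp from a TAM + TPL peak, and RNA of TAX1BP1 was 15.85 and 19.18 FPKM (NT), 13.92 and 13.47 (NT + TPL), 15.98 and 16.86 (TAM) and 12.87 and 17.32 (TAM + TPL). FPKM are counts per kilobase of transcript, scaled to the reads of the library. A shorter gap of 23 bp belonged to the unnamed gene ENSG00000274015, and the shortest, 19 bp, to a peak without an annotated start site. The farthest were TAB3 on chromosome X, 6301090 bp away, then PCDH9 and FMR1. TAB3, an adaptor of the TAK1 kinase, ranged from 3.83 to 9.53 FPKM over the 8 libraries, FMR1, an RNA-binding protein of neurons and other cells, from 2.20 to 5.97 FPKM, and PCDH9 was listed at 0 in 7 of 8 libraries. Of the 514, 4.67% lay on chromosome X, against 2.79% of the NT list.

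**Figure D2:**
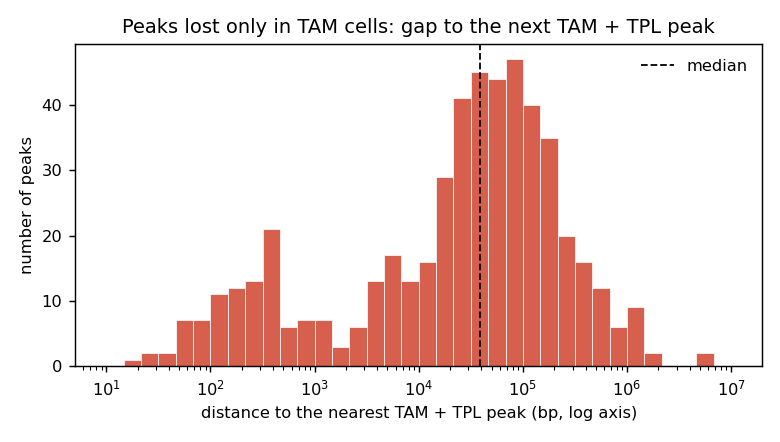
Number of peaks lost only in TAM cells by the distance in bp (log axis) from the nearest TAM + TPL peak, for the 512 with a TAM + TPL peak on their chromosome. The dashed line is the median of 38612 bp, and a smaller group of 89 peaks lay within 1 kb.

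Of the 514 peaks, 445 held an annotated start site and 69 did not. They belonged to 585 annotated genes, 459 protein coding and 101 lncRNA genes, with 10 microRNA genes among the rest. Of 523 genes with a gene ID, 492 were listed in at least 1 RNA library and 452 passed the filter on low counts, and 40 were listed and not tested. Both strands had a start site in 18.3% of the peaks, against 32.0% of the kept ones, 14.2% of those lost only in NT cells and 11.75% of those lost in both states. At such pairs the peak cannot be assigned to either gene. Total expected counts lay between 7461309 and 8349448 per RNA library. Of the 8 basal markers of the line, all were above 0 in every library, from KRT17 (742 to 7284 FPKM) to TP63 (0.28 to 24.19 FPKM). The leukocyte markers PTPRC and ITGAM reached 2.14 and 9.82 FPKM, and the fibroblast marker DCN was at 3.67 to 6.69 FPKM. Their part in the results was not tested. ESR1 was at 36.9 to 249 FPKM in these cells, which carry a part of that gene in ErSrc, and the part of the fusion in that level was not tested.

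Member genes were expressed below the kept ones. The median level over the 492 listed genes was 5.35 FPKM (NT), 4.45 (NT + TPL), 5.29 (TAM) and 4.13 (TAM + TPL), against 10.47, 8.63, 10.3 and 8.85 FPKM for the 7980 genes at kept peaks. Levels are per transcript length. Among the highest were KRT5, KRT7, GNAS (the stimulatory G protein subunit), TECR (an enzyme of fatty acid elongation) and PTBP1 (a splicing repressor). GNAS and PTBP1 also had a start site inside a TAM + TPL peak, as did 52 of the 452 tested genes.

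The RNA was tested because the rule did not use it. With TPL in TAM cells, RNA of 2 of the 452 tested genes was called raised and 13 were called lowered, where a call needed an adjusted p of at most 0.001 in edgeR's quasi-likelihood test and a log2 fold change no smaller in size than 1.2. Over all 16948 entries tested, 0.844% were called raised and 2.04% lowered, so 2.88% lowered among the members was near the background. In NT cells with TPL, where the peaks had stayed, 6 members were raised and 15 lowered, against 1.22% and 2.71% of all entries. The lowered genes numbered 8 in both states, namely CASP2, CDCA7, CTDSP1, MIDEAS, MRPS26, NR2F6, PITX1 and ZFP64, and MICALL2 was raised in both. The median log2 fold change of the members with TPL was -0.26 in TAM cells (0.05 over all entries) and -0.03 in NT cells (0.09 over all entries). Upper quartile scaling gave -0.023 and 0.189 (0.288 and 0.306 over all entries), equal GAPDH gave -0.38 and -0.388 (-0.065 and -0.257 over all entries), and leaving out TAM replicate 1 gave -0.171 in TAM cells. Without NT + TPL replicate 1 the NT value was -0.111. At peaks lost in both states the medians were -0.54 and -0.42, and at kept peaks -0.15 and -0.12. At peaks lost only in NT cells they were -0.47 in TAM cells, where those peaks had stayed, and -0.43 in NT cells. The RNA medians thus did not follow the loss of the peak from class to class. Values are relative to the library total, so a loss of RNA shared by all genes would not show. The counts rested on the 8 libraries together. Without NT replicate 1 or 2, TAM replicate 1 or 2, or TAM + TPL replicate 1 or 2, 0 members were called with TPL in TAM cells in either direction, while 2 and 15 were called without either NT + TPL library. In NT cells, 1 raised and 4 lowered members were called without NT + TPL replicate 1, and 0 when any other single library was left out. At an adjusted p of 0.05 in place of 0.001, 22 members were raised and 63 lowered in TAM cells (9.05% and 10.1% of all entries) and 33 and 66 in NT cells (9.78% and 11.3%). With DESeq2 the counts were 13 raised and 50 lowered in TAM cells and 20 and 55 in NT cells. The share over all entries was not computed for DESeq2, so these counts are not set against a background.

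**Figure D3:**
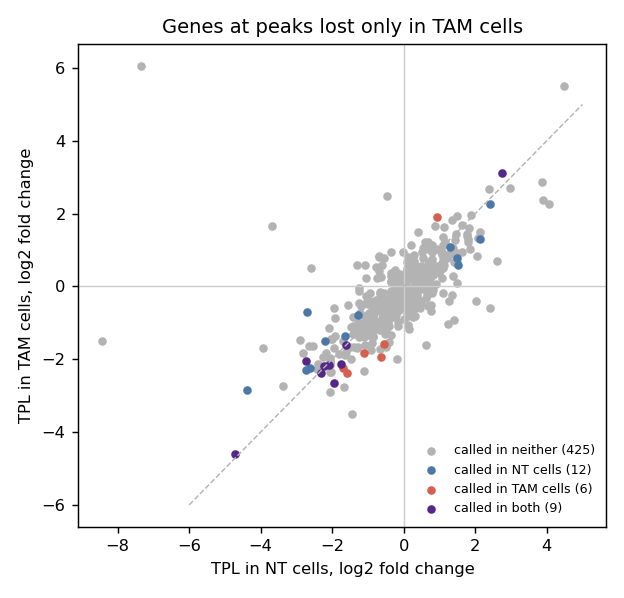
Log2 fold change with TPL in NT cells (horizontal axis) and in TAM cells (vertical axis) for the 452 tested genes at peaks lost only in TAM cells, the dashed line marking equal change. In all, 9 genes were called in both states, another 12 in NT cells alone and another 6 in TAM cells alone.

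The difference between the TPL effects in the 2 states was tested directly for each gene. It was called for 0 members in either direction, as for 0% of all entries, and the smallest adjusted p was 0.099. At an unadjusted p under 0.05, 25 members had the more positive TPL effect in TAM cells and 29 the more negative one, against 5.03% and 5.59% of all entries, which is 5.53% and 6.42% of the members. At an adjusted p of 0.05 the counts were also 0 and 0, against 0.0885% and 0.0767% of all entries. DESeq2 called 1 and 2, with no share over all entries computed for that fit. The median difference was -0.15 on the log2 scale, against -0.02 over all entries. With each library scaled to equal GAPDH it was 0.09, against 0.22 over all entries, so its sign depended on the scaling. Without NT + TPL replicate 1 it was -0.058.

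The genes lowered by TPL with the largest fold changes are described by their known roles, which were assigned after the calls, while the fixed list of chromatin modifiers held 2 members, ING3 and ING2, with 0 calls. CDCA7, a partner of the chromatin remodeller HELLS, was at 15.82 and 18.37 FPKM in TAM cells and at 0.66 and 0.80 in TAM + TPL cells. In NT cells it was at 12.77 and 16.16 FPKM and at 0.50 and 0.61 with TPL. The groups did not overlap, and the log2 fold changes were -4.59 ± 0.25 (SE, adjusted p = 0.00023) in TAM and -4.71 ± 0.26 (SE, adjusted p = 0.00019) in NT cells. PITX1, a homeobox factor, was at 41.38 and 34.01 FPKM (NT), 8.49 and 6.79 (NT + TPL), 27.79 and 25.85 (TAM) and 5.80 and 4.86 (TAM + TPL). It fell by 2.38 ± 0.18 on the log2 scale in TAM cells (SE, adjusted p = 0.0004). PITX1-AS1, which starts on the other strand within the same peak, had a log2 change of -0.70 ± 0.18 (SE, adjusted p = 0.025), which is no call. ZMYND8, a reader of acetylated histones, was at 8.76 and 9.42 FPKM in TAM cells and 1.87 and 1.73 with TPL, and at 6.58 and 7.21 in NT cells and 2.86 and 1.76 with TPL. Its fall passed the test in TAM cells (log2 change -2.37 ± 0.23, SE, adjusted p = 0.00081) and not in NT cells (-1.59 ± 0.23, SE, adjusted p = 0.0027), and the difference did not pass either (adjusted p = 0.47). CTDSP1 was at 51.76 and 48.44 FPKM in TAM cells and 7.71 and 8.45 with TPL, and at 41.44 and 40.25 in NT cells and 11.39 and 9.95 with TPL. Its log2 fold changes were -2.65 ± 0.14 in TAM and -1.96 ± 0.13 in NT cells (SE, adjusted p = 0.00023 and 0.00026), and their difference had an adjusted p of 0.27. MIDEAS, the scaffold of a histone deacetylase complex, was at 9.43 and 13.51 FPKM in NT cells and 1.81 and 1.59 with TPL, which gave a log2 change of -2.74 ± 0.21 (SE, adjusted p = 0.00034).

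Other called genes moved in both directions. PMEPA1, an inhibitor of TGF-beta signalling, was at 22.57 and 23.89 FPKM in TAM cells and 5.16 and 4.79 with TPL, which gave a log2 change of -2.25 ± 0.19 (SE, adjusted p = 0.00054). In NT cells it was at 42.43 and 40.63 FPKM and at 11.02 and 14.74 with TPL. AJUBA, a scaffold of cell junctions, was at 43.59 and 49.19 FPKM (NT), 3.13 and 1.87 (NT + TPL), 11.61 and 13.40 (TAM) and 2.19 and 1.61 (TAM + TPL). Its fall was called in NT cells (log2 change -4.38 ± 0.32, SE, adjusted p = 0.0003), and the log2 change in TAM cells was -2.83 ± 0.31 (SE, adjusted p = 0.0011). KPNA3, an importin, was at 13.50 and 20.32 FPKM in NT cells and 2.88 and 2.25 with TPL. MICALL2, an actin-linked trafficking protein, was at 2.34 and 1.97 FPKM in TAM cells and 22.13 and 16.62 with TPL. It was at 4.09 and 3.98 FPKM in NT cells and 21.70 and 32.17 with TPL, so every TPL library was above every DMSO library. The rises were 3.12 ± 0.28 in TAM and 2.74 ± 0.27 in NT cells on the log2 scale (SE, adjusted p = 0.00061 and 0.00071). SLC7A11, the cystine transporter that feeds glutathione synthesis, was at 1.3 and 1.34 FPKM in TAM cells and 5.01 and 5.17 with TPL, and at 2.26 and 2.78 in NT cells and 5.20 and 4.56 with TPL. Its log2 fold changes were 1.90 ± 0.16 in TAM (SE, adjusted p = 0.0005) and 0.94 ± 0.15 in NT cells (SE, adjusted p = 0.0043), and the difference did not pass (0.96 ± 0.22, SE, adjusted p = 0.21). SHPK, a kinase of the pentose phosphate pathway, was at 4.12 and 3.49 FPKM in NT cells and 23.84 and 17.11 with TPL, a called rise of 2.42 ± 0.26 (SE, adjusted p = 0.00099). In TAM cells its log2 change was 2.26 ± 0.26 (SE, adjusted p = 0.0013), just outside the threshold. KLHL26 and PTTG1 (securin, which holds sister chromatids together) rose in NT cells, by 2.12 ± 0.23 and 1.51 ± 0.16 on the log2 scale (SE, adjusted p = 0.00097 and 0.00094). In TAM cells the next by p were CCDC163, PHACTR4 and SMTN, with log2 fold changes of 1.93, 1.08 and 1.28 that were not called. PHACTR4 was called raised with TPL in NT cells. The paper names PHACTR4 among genes with both more RNAPII at the start site and more RNA after TPL. The peak lists used here give no height to set beside that.

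**Figure D4:**
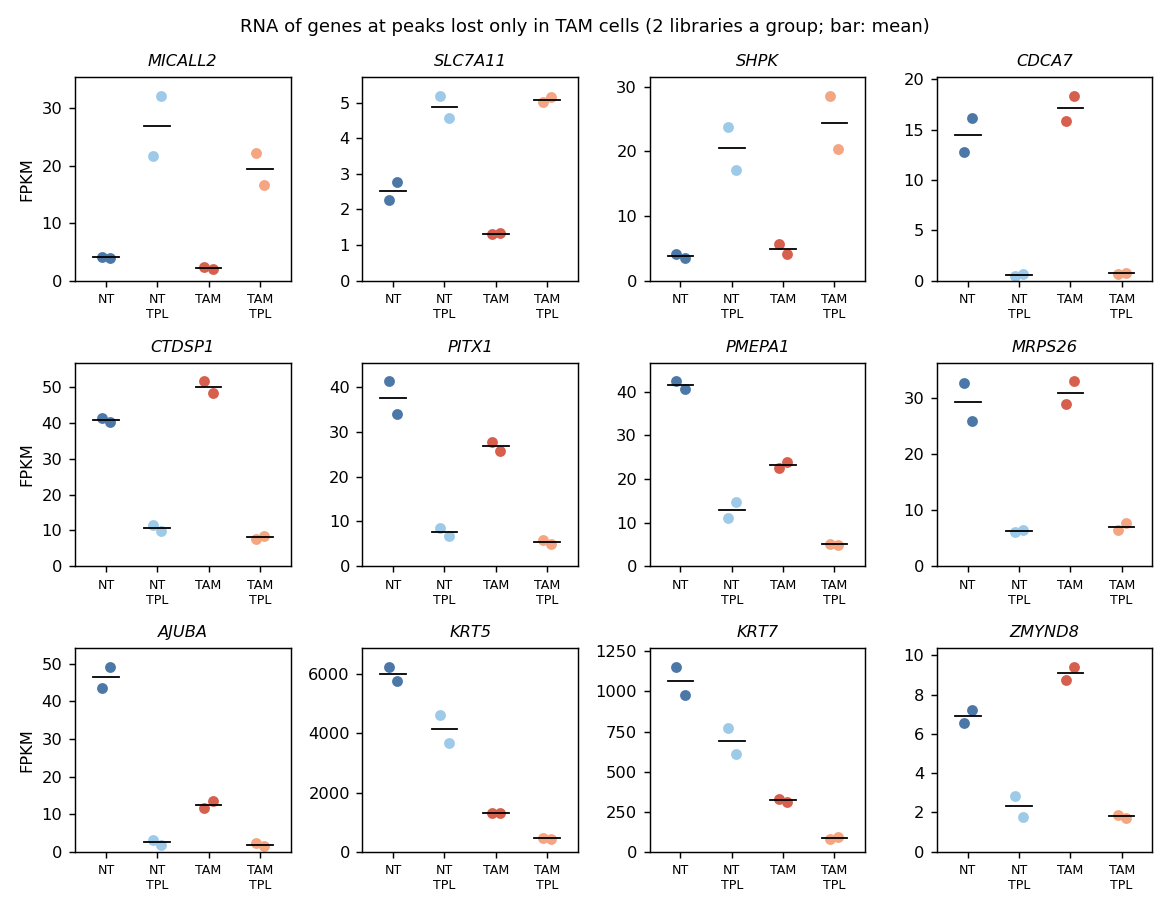
RNA level in FPKM in each library (points) and the mean of 2 libraries (bars) for 12 genes at peaks lost only in TAM cells, each panel with its own axis from 0. MICALL2, SLC7A11 and SHPK were higher in every TPL library than in the DMSO libraries of the same state, and the other 9 genes were lower.

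KRT5, under the second widest peak, was lower in TAM cells before TPL was added, and TPL lowered both KRT5 and KRT7 there. KRT5 was at 6250 and 5776 FPKM (NT), 4630 and 3677 (NT + TPL), 1308 and 1308 (TAM) and 475 and 434 (TAM + TPL), and no groups overlapped. It was lower in TAM than in NT cells, with a log2 difference of -2.18 ± 0.14 (SE, adjusted p = 0.00037). TPL lowered it further in TAM cells (-1.57 ± 0.13, SE, adjusted p = 0.00053), with -0.54 ± 0.13 in NT cells (SE, adjusted p = 0.018). The difference of -1.03 ± 0.19 (SE) had an adjusted p of 0.13. KRT7 was at 1154 and 977 FPKM (NT), 774 and 608 (NT + TPL), 328 and 311 (TAM) and 78.1 and 95.0 (TAM + TPL). Its fall with TPL was called in TAM cells (-1.93 ± 0.17, SE, adjusted p = 0.00057), was -0.63 ± 0.16 in NT cells (SE, adjusted p = 0.023), and differed by -1.3 ± 0.23 (SE, adjusted p = 0.13). The desmosomal cadherins DSG3 and DSC3 were also members, so 4 of 32 tested keratin and adhesion genes were, against 2.92% of all tested genes listed by gene ID. Of the same list, 9 lay at peaks lost in both states, 2 at peaks lost only in NT cells and 11 at kept peaks. Only a gene at an NT peak can be a member, and 25 of the 32 were at one. The share among genes at NT peaks was not computed. Between the DMSO groups, 3 members were called lower in TAM cells and 0 higher, against 0.277% and 0.378% of all entries. Besides KRT5 these were TRNP1, the TMF-regulated nuclear protein (73.90 and 67.88 FPKM in NT and 5.40 and 7.62 in TAM cells, -3.43 ± 0.21, SE, adjusted p = 0.00033), and COL4A6, a collagen chain of basement membrane (7.03 and 7.95 against 1.75 and 1.46 FPKM, -2.23 ± 0.16, SE, adjusted p = 0.00055). Leaving out any single NT, TAM or TAM + TPL library left 0 of these calls. At an adjusted p of 0.05, 15 members were higher and 19 lower (2.53% and 2.35% of all entries).

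Members were a larger share of the DNA replication genes than of all tested genes. Of 82 tested genes of replication and repair, 13 (15.9%) were members, whereas 2.92% of all tested genes listed by gene ID were. The list held 0 genes at peaks lost only in NT cells, 3 at peaks lost in both states and 59 at kept peaks. Only a gene at an NT peak can be a member, and 80 of the 82 were at one. Of all tested genes listed by gene ID, 48.9% were at kept peaks, 8.08% at peaks lost in both states and 3.04% at peaks lost only in NT cells. The 2 shares thus have unlike bases, and the share among genes at NT peaks was not computed. Among the members were the helicase subunits MCM2, MCM5 and MCM6, their partners GINS3 and GINS4, the origin binding ORC6, the clamp loader RFC5, the polymerase subunits POLA1 and POLD3, the ligase LIG1, and the repair genes RAD54L and XRCC3. Since the list was chosen with earlier results known, the share is a description. With TPL, 0 of the 13 were called in either state. At an unadjusted p under 0.05, 6 were lower and 1 higher in TAM cells (24.0% and 21.0% of all entries), and 4 were lower and 3 higher in NT cells (24.1% and 23.7%). GINS3 was at 5.38 and 5.92 FPKM in TAM cells and 0.88 and 1.22 with TPL. MCM6 was at 7.59 and 7.17 FPKM in TAM cells and 4.22 and 4.64 with TPL added, and at 4.90 and 5.19 in NT and 2.25 and 2.76 in NT + TPL cells. ORC6, by contrast, was at 9.65 and 11.41 FPKM in TAM cells and 14.89 and 11.78 with TPL added. Each TAM + TPL library was above both TAM libraries with DMSO, narrowly so for 11.78 against 11.41 FPKM. The member peak was absent there, but a TAM + TPL peak lay 207 bp away. ORC6 shares the member peak with VPS35 on the other strand.

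Before TPL, 9 of the 13 replication members were higher in TAM than in NT cells at an unadjusted p under 0.05 and 0 lower, against 9.51% and 10.4% of all entries, and 0 were called. Their median difference was 1.02 on the log2 scale, compared with 0.46 over the 82 genes of the list and -0.03 over all entries. MCM5 was at 9.45 and 7.29 FPKM in TAM and 2.48 and 2.15 in NT cells, a log2 difference of 1.87 ± 0.34 (SE, adjusted p = 0.022). MCM2 was at 7.06 and 5.73 against 2.62 and 2.20 FPKM (1.43 ± 0.22, SE, adjusted p = 0.012). The groups did not overlap for either. Of 67 mitosis and cell cycle genes, 8 (11.9%) were members, with RBL2, RBL1, CDKN1B, CDC25A, ECT2, ANLN, E2F7 and NDC80, and 0 were called with TPL. Before TPL their median difference between TAM and NT cells was 0.68, below the 1.19 of the whole list. ECT2, a cytokinesis regulator, was at 10.86 and 12.08 FPKM in TAM cells and 7.63 and 7.38 with TPL added, and at 5.79 and 5.89 in NT and 4.82 and 5.91 in NT + TPL cells. Members outside the list with the smallest p for a higher level in TAM cells were the centrosome gene CDK5RAP2 (8.54 and 7.09 against 2.54 and 2.71 FPKM), the midbody gene CEP55 (8.17 and 9.70 against 1.21 and 1.2) and DDIAS (3.05 and 2.56 against 0.61 and 0.55), with adjusted p of 0.0024, 0.0048 and 0.0065, which are no calls.

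**Figure D5:**
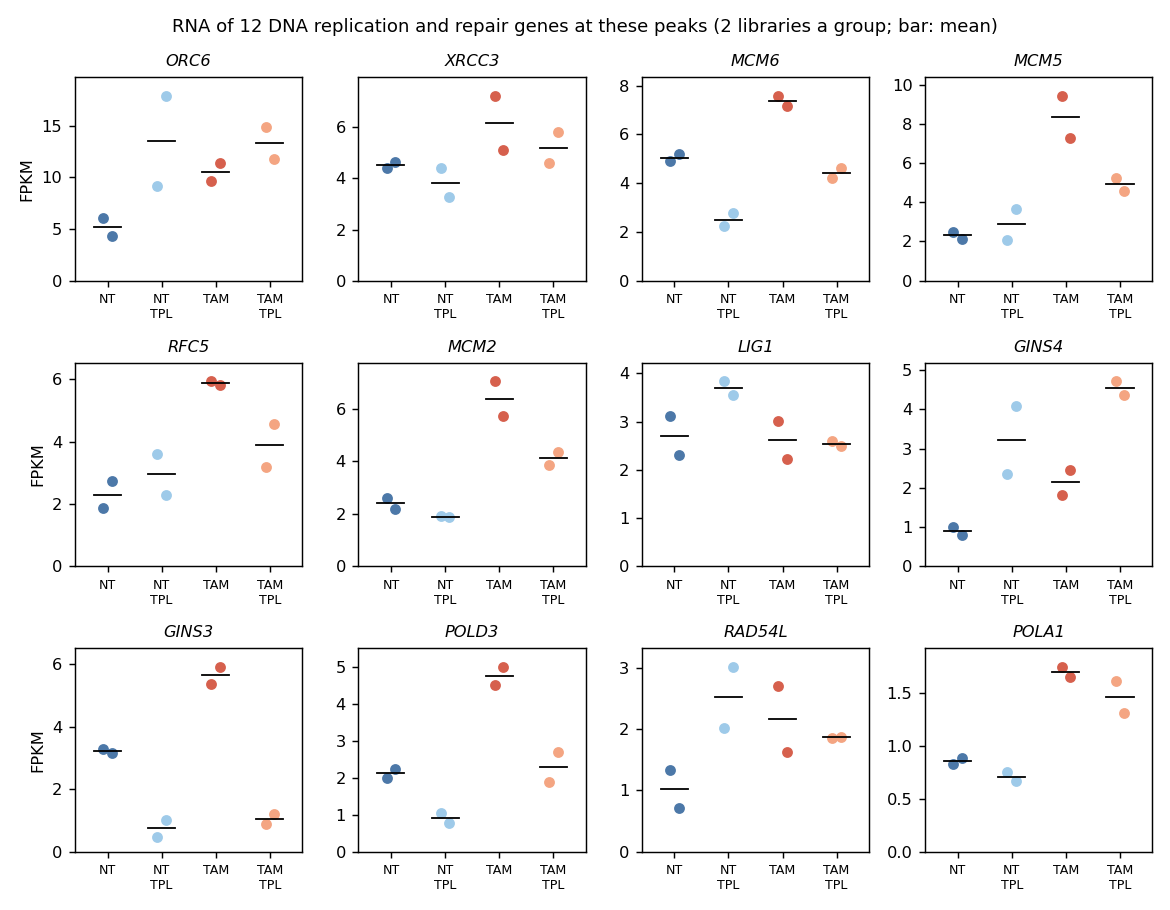
RNA level in FPKM in each library (points) and the mean of 2 libraries (bars) for 12 of the 13 DNA replication and repair genes at peaks lost only in TAM cells, each panel with its own axis from 0. MCM5 was at 9.45 and 7.29 FPKM in TAM and 2.48 and 2.15 in NT cells, and GINS3 was lower with TPL in both states.

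The other lists were short sets of named genes and do not hold every gene of a function. C2H2 zinc finger genes held 18 of 532 tested (3.38%), of which ZFP64 was lowered by TPL in both states. Solute carriers held 10 of 292, with SLC7A11 raised in TAM cells. Antisense and intergenic RNA genes held 13 of 948 and had 0 calls. Mitochondrial ribosomal proteins held 2 of 80, MRPS26 and MRPL11. MRPS26 was at 28.93 and 33.01 FPKM in TAM cells and, with TPL, at 6.38 and 7.73 (-2.18 ± 0.21, SE, adjusted p = 0.0008), and MRPL11 was at 21.19 and 23.12 in TAM cells and 21.80 and 19.22 with TPL added. Ubiquitin system genes held 4 of 312, histone genes 3 of 37 (8.11%), MAP kinase genes 3 of 41 (7.32%), small GTPase and chromatin modifier genes 2 each of 114 and 111, and respiratory chain, tRNA synthetase, apoptosis and p53 target genes 1 each (ATP5F1A, EARS2, CASP2 and DDB2). CASP2, an initiator caspase, was at 23.74 and 24.27 FPKM in TAM cells and 5.63 and 5.66 with TPL, which gave a log2 change of -2.13 ± 0.16 (SE, adjusted p = 0.00038). DDB2, a damage sensor and target of p53, was at 4.93 and 5.48 FPKM in TAM cells and at 10.02 in both TAM + TPL libraries, which is no call (adjusted p = 0.0084). The lists of cytosolic ribosomal proteins, proteasome subunits, initiation factors with TFIIH, and pausing and elongation factors held 0 members. So did those of NF-kB and cytokine genes, AP-1 and immediate early genes, splicing factors, circadian genes, and dual specificity phosphatases with Sprouty genes. PTBP1 (splicing) and NFKBID (NF-kB) are members with related roles that are not on these lists. TP53I3 is a member that is not on the list of p53 targets.

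The genes with the smallest p for the difference between the TPL effects were METTL4, KRT7, KRT5, MEN1, IRX1 and TP53I3. IRX1, a homeobox factor, was at 13.8 and 13 FPKM (NT), 2.33 and 1.82 (NT + TPL), 7.37 and 6.74 (TAM) and 5.56 and 3.46 (TAM + TPL), with log2 changes of -2.69 in NT cells, which kept the peak, and -0.70 in TAM cells (difference 2.0 ± 0.39, SE, adjusted p = 0.16). MEN1, the menin tumour suppressor, was at 18.63 and 19.30 FPKM (NT), 33.89 and 30.60 (NT + TPL), 25.51 and 25 (TAM) and 19.50 and 12.94 (TAM + TPL) (difference -1.45 ± 0.28, SE, adjusted p = 0.16). TP53I3, an oxidoreductase induced by p53, was at 69.69 and 55.46 FPKM (NT), 69.98 and 82.41 (NT + TPL), 52.81 and 51.69 (TAM) and 30.44 and 31.62 (TAM + TPL) (difference -1.11 ± 0.24, SE, adjusted p = 0.2). The METTL4 entry, for a methyltransferase, was at 0.75 to 2.69 FPKM except in NT + TPL cells, where it was listed at 0 in both libraries. METTL4 has 2 entries, and with entries of a gene summed the difference was 0.15 on the log2 scale (adjusted p = 0.94), against 6.93 for this entry alone. It shares its peak with NDC80, which starts on the other strand.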

How the data were processed

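The authors called RNAPII ChIP peaks (antibody 8WG16) over input on hg19 and the deposited lists are labelled as peaks with a transcription start site. The annotation behind that label is not given in the sources used here, and 89.6% of the NT peaks held a start site of the annotation used below. Their methods name SOAP2 and MACS2, and the submitters' processing notes name BWA, MACS 1.4.2 and HOMER. The lists give no score or height. The deposited expected counts are RSEM estimates of reads per gene from poly-A RNA aligned with Bowtie2, without normalization, and the deposited FPKM values scale them by the length of the transcript and the depth of the library. Strand use is not given in the sources used here, so overlapping and antisense genes cannot be told apart. Lists were intersected with bedtools 2.31.1 (1 bp). A member gene has a GENCODE release 44 start site (placed on build 37) inside a member peak, and names came from a RefSeq table on build 38 used for names only. After rounding, the counts of all 8 libraries entered one edgeR 4.0.16 model with 4 groups (quasi-likelihood test, TMM, its filter on low counts, which left 16948 entries, and p adjusted by Benjamini-Hochberg, biological coefficient of variation 0.315). A gene with several entries was read from its gene ID entry, otherwise from the accession with the most counts, and 43 member genes had several. The study calls the 2 libraries of a group biological replicates, and p-values measure the spread between them. The code was tested on simulated data. Replicate numbers did not pair the samples (correlations of deviations between -0.135 and 0.0501).

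Named genes were the called genes with the largest fold change, with a mean of at least 1 FPKM and groups that did not overlap (up to 6 a direction for TPL in TAM cells, 4 in NT cells and 3 for TAM against NT, filled up by p), the 6 with the smallest p of the difference, the 6 with the highest FPKM, up to 3 of each of 25 functional lists, and the widest, nearest and farthest peaks. Genes listed by group beyond these were given as all members of their list or all calls. The members and lists were chosen with earlier results of these data known, and the E2F motif after values were seen. The alternatives were DESeq2 1.42.0, other scalings and filters, limma 3.58.1 on log2(FPKM + 1) and log2(FPKM + 0.1), a replicate block, other membership rules and leaving out each library. Some genes that this rule names are not reported here.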

Additional observations from a re-analysis of the deposited data

How the results depend on the processing

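The 514 peaks became 216 when at least 50% of the NT peak had to be covered and 212 among NT peaks at least as wide as the median, and 425 or 641 with no TAM + TPL peak within 1 kb or with the TAM list as the start. Apart from the adjusted p of 0.05, no share of calls over all entries was computed for the settings below. Counts of called members depended on the fit. They are given as raised and lowered with TPL in TAM cells, then in NT cells, then higher and lower in TAM than in NT cells: 13 and 50, 20 and 55, 12 and 18 with DESeq2 (1 and 2 for the difference of the TPL effects), 22 and 63, 33 and 66, 15 and 19 at an adjusted p of 0.05, 7 and 31, 14 and 30, 4 and 10 with at least 10 counts in every library, and 9 and 44, 17 and 44, 7 and 12 with entries summed by gene, chosen after seeing the data. Upper quartile scaling gave 5 lowered in TAM and 8 in NT cells, equal GAPDH gave 0 raised and 7 lowered in TAM cells and 1 raised in NT cells, library size alone gave 3 raised in NT cells, and a fit of only the groups compared gave 0 raised in TAM cells and 0 and 0 in NT cells. Leaving out each library in turn gave 0 to 2 raised and 0 to 15 lowered in TAM cells, 0 to 1 and 0 to 4 in NT cells, and 0 to 4 lower in TAM than in NT cells. A lone library was then assumed to vary like the other groups, and fewer samples leave fewer degrees of freedom. The median difference of the TPL effects turned from -0.153 to 0.091 with equal GAPDH. Over the 697 pairs of 1 of 32 named gene results with 1 alternative, the call was lost in 202, gained in 30 and the direction changed in 0, and 201 of the 202 kept a log2 fold change past 1.2. The cause of the other changes was not tested.

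With the replicate number as a block, 0 members were called with TPL in TAM cells, 0 with TPL in NT cells and 0 lower in TAM than in NT cells, but the numbers do not pair the samples. With the NT + TPL numbers crossed in the block, chosen after seeing the data, the counts were 0 raised and 0 lowered in TAM cells, 0 raised and 1 lowered in NT cells and 0 lower in TAM than in NT cells.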
